A study of Mus musculus with 8 samples.

Results

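The 3 Nr4a receptors and 7 activity-regulated genes were followed across 8 frontal cortex libraries to ask whether the lower Nr4a2 RNA of HAR123-KO mice went together with the genes that neurons switch on when they fire. The 10 genes were taken by name from a table of 55536 annotated genes. They are Nr4a1, Nr4a2, Nr4a3, Fos, Junb, Egr1, Egr3, Arc, Npas4 and Bdnf. Nr4a2 was selected on its genotype difference in these same libraries (its log2 fold change and adjusted p), so its values are given as a description with no test. The other 9 were listed by family or function.

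Total RNA depleted of ribosomal RNA was sequenced from the frontal cortex of mice 8 weeks of age, with 4 libraries per genotype. WT animals were littermates of the mutants. HAR123-KO animals carry a CRISPR-Cas9 deletion of the mouse counterpart of HAR123, a human accelerated region that acts as a neural enhancer and sits within an intron of SMG6. Guides and Cas9 were injected into C57BL/6J embryos, and the strain was backcrossed to C57BL/6J. The deletion is in every cell of the animal, and the sex of the animals and the number of founder lines are not given in the sources used here. No stimulus before collection of the tissue is named in these sources.

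The libraries held 13528251 to 17051001 counts, of which 2786320 to 3732172 fell on nuclear protein-coding genes. The tissue label was checked against marker genes. The 6 markers of cortical excitatory neurons (among them Slc17a7 and Camk2a) summed to 16032 to 16425 normalized counts in WT and 15063 to 15191 in HAR123-KO. The 12 markers of striatal projection neurons, cells that belong to the neighbouring striatum, summed to 6197 to 6349 in WT and 8129 to 8234 in HAR123-KO, and 10 of the 12 rose. A normalized count is a read count divided by the library's size factor. Here "rose" and "fell" mean a DESeq2 adjusted p under 0.05 over all genes tested.

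Nr4a1 (Nur77), Nr4a2 (Nurr1) and Nr4a3 (Nor1) are orphan nuclear receptors, transcription factors whose ligand pocket is closed, so that their activity follows the amount of protein made. All are immediate early genes: calcium entry into a firing neuron activates CREB and MEF2 factors, which turn the genes on within minutes without new protein. Nr4a2 also has a constant role, in midbrain dopamine neurons and in claustrum and deep cortical layers, where it marks cell identity. Fos, Junb, Egr1, Egr3 and Npas4 encode other early transcription factors, Arc encodes a protein that controls AMPA receptor removal at synapses, and Bdnf encodes a neurotrophin.

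Of the 10 genes, 1 was past both limits that the study uses for this tissue, an adjusted p under 0.05 with an absolute log2 fold change over 0.5. This was Nr4a2, which was lower, and over all 12758 genes tested 0.298% were past both limits, 0.0705% lower and 0.227% higher. With the adjusted p alone, 3 were lower (Nr4a2, Egr1 and Egr3) and 1 was higher (Nr4a1), where 1.69% of all tested genes passed, 0.713% lower and 0.972% higher. The remaining 6 did not pass. Nr4a2 entered the list through this contrast, so nothing is read from the counts that include it. The genotypes did not overlap in 4 of the 10 genes, against 7.67% of all tested genes.

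Nr4a2 (ENSMUSG00000026826, chr2:57106830-57124003, minus strand, GRCm38) had 239.8, 223, 191 and 198 normalized counts in the 4 WT libraries and 121, 110.3, 131 and 121 in the 4 HAR123-KO libraries. Every HAR123-KO library lay below every WT library, with a wide gap between the groups. The mean was 213 ± 22.5 (SD, n = 4) in WT and 121 ± 8.53 in HAR123-KO, which is 57.0% of the WT level. The log2 fold change was -0.81 ± 0.11 (SE), with a 95% interval of -1.02 to -0.60. Leaving out any 1 library kept it between -0.86 and -0.75. In bulk tissue, fewer cells of a type that expresses a gene and less of its RNA per cell cannot be told apart, here and in every value that follows.

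Nr4a1 (ENSMUSG00000023034, chr15:101254269-101274795, plus strand), an early response gene in many cell types, had 171, 148, 181 and 162 normalized counts in WT and 208, 203, 190.2 and 252 in HAR123-KO. The highest WT library stayed below the lowest HAR123-KO library, the opposite order from Nr4a2. Nr4a1 rose to 128% of WT (log2 fold change 0.36 ± 0.10, SE, 95% interval 0.16 to 0.55, DESeq2 adjusted p = 0.028), which is under the fold limit of 0.5. This call did not hold in every fit. It was lost without WT replicate 1, 2 or 4 or without HAR123-KO replicate 1, 2 or 4, with DESeq2 adjusted p up to 0.337. With 1 library left out, the log2 fold change stayed between 0.27 and 0.41. Calls over all genes by the adjusted p fell from 215 to between 133 and 185 in these fits. The Nr4a1 call was also lost when genes were required to have 10 counts in 4 libraries (DESeq2 adjusted p = 0.0607). The same held with the independent filter off (DESeq2 adjusted p = 0.0616) and with the replicate number as a block. Nr4a1 passed by edgeR and by limma-voom (limma-voom adjusted p = 0.0368). In DESeq2 it passed with TMM factors, library totals (adjusted p = 0.0105), protein-coding size factors and size factors from cortical excitatory markers.

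Nr4a3 (ENSMUSG00000028341, chr4:48045153-48086447, plus strand) had 99.1, 96.8, 98.3 and 101 normalized counts in WT and 98.3, 79.9, 83.6 and 92.5 in HAR123-KO. HAR123-KO replicate 1 reached the WT range and the other three lay below it. Nr4a3 did not pass the test (log2 fold change -0.16 ± 0.13, SE, DESeq2 adjusted p = 0.858), and its 95% interval of -0.42 to 0.10 leaves room for a decrease. The 3 receptors thus showed a lower level, a higher level and no difference that passed the test.

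The start regions of the 3 receptors are shown because they carry the sequence that CREB reads. Each line gives the 250 bases before the annotated start (RefSeq, GRCm38.p6), written 5′ to 3′ on the gene's strand, and the capitals mark the half-site of the cAMP response element, TGACG, or CGTCA where it lies on the other strand. Nr4a1 is at chr15:101266596-101266845 (plus strand), Nr4a2 at chr2:57124004-57124253 (minus strand) and Nr4a3 at chr4:48045055-48045304 (plus strand).
Nr4a1: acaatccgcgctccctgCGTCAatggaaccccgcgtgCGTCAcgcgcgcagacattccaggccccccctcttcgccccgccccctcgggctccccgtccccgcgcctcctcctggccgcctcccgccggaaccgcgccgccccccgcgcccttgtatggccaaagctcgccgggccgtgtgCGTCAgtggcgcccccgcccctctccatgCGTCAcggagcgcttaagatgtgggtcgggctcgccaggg
Nr4a2: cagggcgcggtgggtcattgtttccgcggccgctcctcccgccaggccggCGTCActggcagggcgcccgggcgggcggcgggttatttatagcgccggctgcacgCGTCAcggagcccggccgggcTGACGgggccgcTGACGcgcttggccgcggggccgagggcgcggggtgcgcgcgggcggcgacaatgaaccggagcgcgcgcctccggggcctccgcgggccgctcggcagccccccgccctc
Nr4a3: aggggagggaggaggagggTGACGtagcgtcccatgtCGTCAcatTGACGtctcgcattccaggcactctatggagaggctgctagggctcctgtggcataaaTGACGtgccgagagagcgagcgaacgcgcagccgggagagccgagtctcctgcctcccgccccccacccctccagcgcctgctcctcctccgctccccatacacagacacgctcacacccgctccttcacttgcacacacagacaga

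Each receptor held 4 half-sites in this window. At least 4 were found in 0.137% of the 32851 windows of the same length in the RefSeq table, and at least 1 in 17.8%. These shares are over all windows and were not matched for base content. G and C made up 74.4% of the Nr4a1 window, 80% of that of Nr4a2 and 63.6% of that of Nr4a3. The Nr4a2 half-sites began 200, 144, 123 and 111 bases before the start. Those of Nr4a1 began 233, 213, 69 and 40 bases before it, and those of Nr4a3 began 231, 213, 205 and 147 bases before it. A receptor that was lower, one that was higher and one that did not pass the test had the same number of half-sites. Among the activity-regulated genes with a start window, Fos and Npas4 held 2 half-sites each and Junb held 1, while 1 of the 7 Bdnf windows held one. No start window was found for Egr1, Egr3 or Arc, so these genes were not searched. None of the 13 windows of the 7 genes held the full element TGACGTCA (1.55% of all windows), which contains the half-site on both strands, the NBRE motif AAAGGTCA that Nr4a receptors bind (1.34%) or the CArG box bound by SRF (1.47%). These letters were searched on both strands, and a match describes the sequence only.

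**Figure D1:**
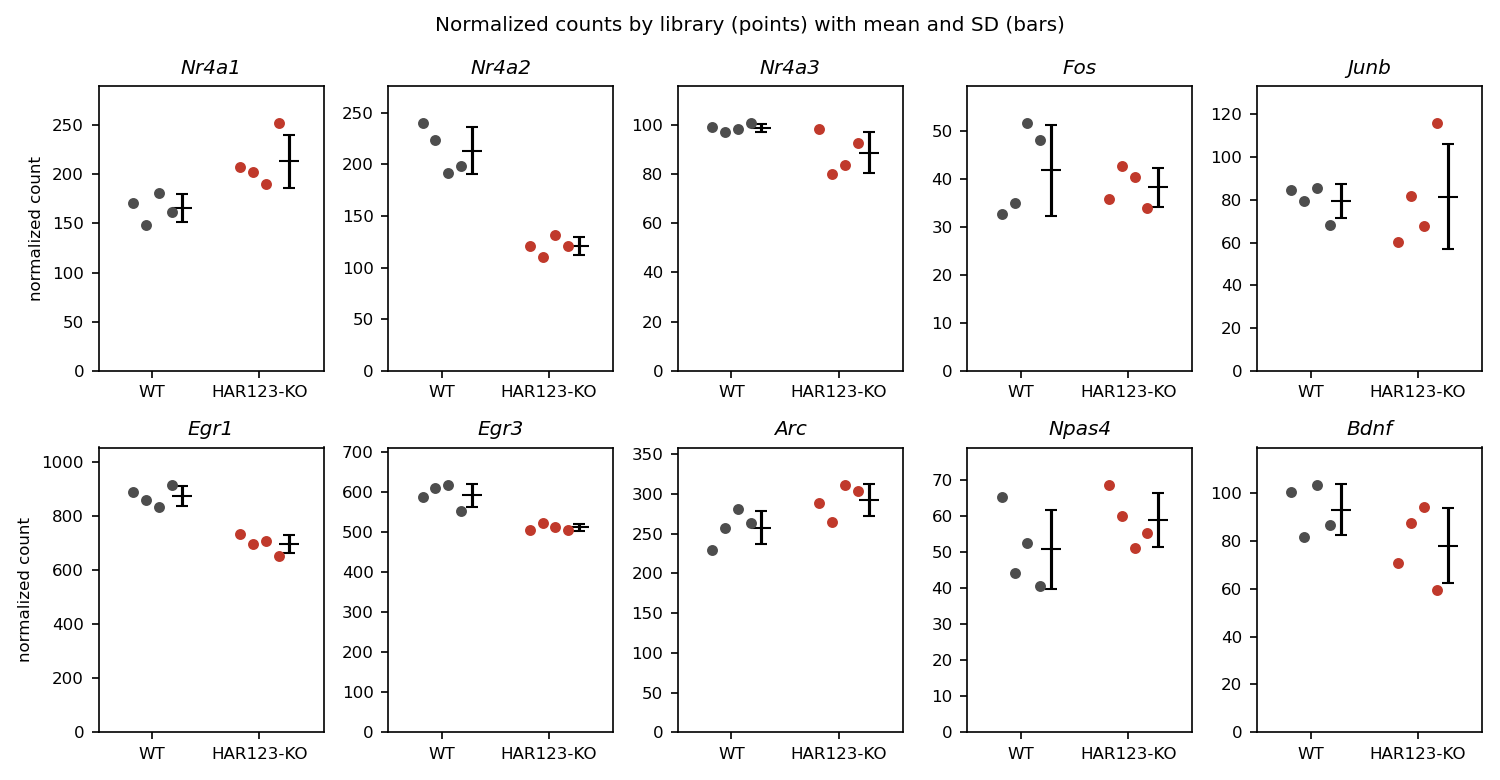
Normalized counts (linear axis from 0) of the 10 genes in each of the 4 WT (grey) and 4 HAR123-KO (red) libraries, with mean and SD as bars. Nr4a2, Egr1 and Egr3 are lower in every HAR123-KO library than in any WT library, Nr4a1 is higher in every one, and the groups overlap in the other panels.

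Egr1 (ENSMUSG00000038418, chr18:34859823-34864984, plus strand), a zinc finger factor that follows ongoing synaptic activity in cortex, had 892, 862, 835 and 918 normalized counts in WT and 734, 699.8, 708 and 655 in HAR123-KO. All HAR123-KO libraries lay below all WT libraries, and the spread within each genotype was 4.12% of the mean in WT and 4.70% in HAR123-KO. Egr1 fell to 80.0% of WT (log2 fold change -0.32 ± 0.05, SE, 95% interval -0.42 to -0.23, DESeq2 adjusted p = 2.24e-08). The call held in all 8 fits that left out 1 library, with log2 fold changes between -0.35 and -0.29. With the replicate number as a block it was lost, at a log2 fold change of -0.33 (DESeq2 adjusted p = 0.146). The difference was under the fold limit of 0.5.

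Egr3 (ENSMUSG00000033730, chr14:70077203-70082614, plus strand), a zinc finger factor of the same family as Egr1, had 588, 611, 619 and 553 normalized counts in WT and 506, 523, 513 and 507 in HAR123-KO. The groups did not overlap. Egr3 fell to 86.3% of WT (log2 fold change -0.21 ± 0.06, SE, 95% interval -0.32 to -0.10, DESeq2 adjusted p = 0.0143). The fall was lost without WT replicate 1, 2 or 3 or without HAR123-KO replicate 1, 2 or 3 (DESeq2 adjusted p up to 0.152), while the log2 fold change stayed between -0.24 and -0.19 over all 8 such fits. It was lost also with library totals as size factors, at -0.17 (adjusted p = 0.158), and with size factors taken from the cortical excitatory markers alone, which gave a log2 fold change of -0.12 (adjusted p = 0.163). The median of the genes tested in the main fit was 0.04 with library totals and 0.09 with the excitatory marker factors, against -0.0017.

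Fos and Npas4 did not pass the test. Fos (chr12:85473890-85477273, plus strand) had 32.6, 35.0, 51.7 and 48.1 normalized counts in WT and 35.8, 42.8, 40.5 and 34.0 in HAR123-KO. All 4 HAR123-KO values lay inside the WT range (log2 fold change -0.14 ± 0.21, SE, 95% interval -0.55 to 0.28, DESeq2 adjusted p = 0.959). Npas4 (chr19:4984355-4990316, minus strand), a factor that neurons induce selectively upon calcium entry, had 65.3, 44.3, 52.5 and 40.7 in WT and 68.6, 59.9, 51.1 and 55.3 in HAR123-KO. The Npas4 groups overlapped (log2 fold change 0.21 ± 0.18, SE, 95% interval -0.15 to 0.57, DESeq2 adjusted p = 0.864). Raw counts per library were 29 to 61 for Fos and 38 to 67 for Npas4. At this depth a decrease of the size of that in Egr1 was not detectable for Fos, whereas the Npas4 interval ends above it.

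Arc (chr15:74669083-74672570, minus strand) had 229.7, 257, 280.5 and 263 normalized counts in WT and 289, 265, 312 and 303 in HAR123-KO. The groups overlapped through HAR123-KO replicate 2, and Arc did not pass the test (log2 fold change 0.18 ± 0.08, SE, 95% interval 0.02 to 0.34, DESeq2 adjusted p = 0.467). With size factors from the cortical excitatory markers it did, with a log2 fold change of 0.27 (DESeq2 adjusted p = 0.0128). With these factors the median of the genes tested in the main fit was 0.09. The interval of Arc lay above 0 while those of Egr1 and Egr3 lay below it.

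Junb (chr8:84974484-84978718, minus strand), a partner of Fos in the AP-1 factor, had 84.4, 79.3, 85.6 and 68.5 normalized counts in WT and 60.4, 81.8, 67.8 and 116 in HAR123-KO. The HAR123-KO libraries spanned the whole WT range, and the log2 fold change was 0.03 ± 0.16 (SE, 95% interval -0.29 to 0.35, DESeq2 adjusted p = 0.995). Its 3′ end overlaps Prdx2 on the other strand, and how strand was treated at counting is not stated. Bdnf (chr2:109674700-109727007, plus strand) had 100.2, 81.3, 103 and 86.7 in WT and 70.6, 87.5, 94.2 and 59.6 in HAR123-KO. The Bdnf groups overlapped (log2 fold change -0.25 ± 0.15, SE, 95% interval -0.54 to 0.05, DESeq2 adjusted p = 0.694).

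**Figure D2:**
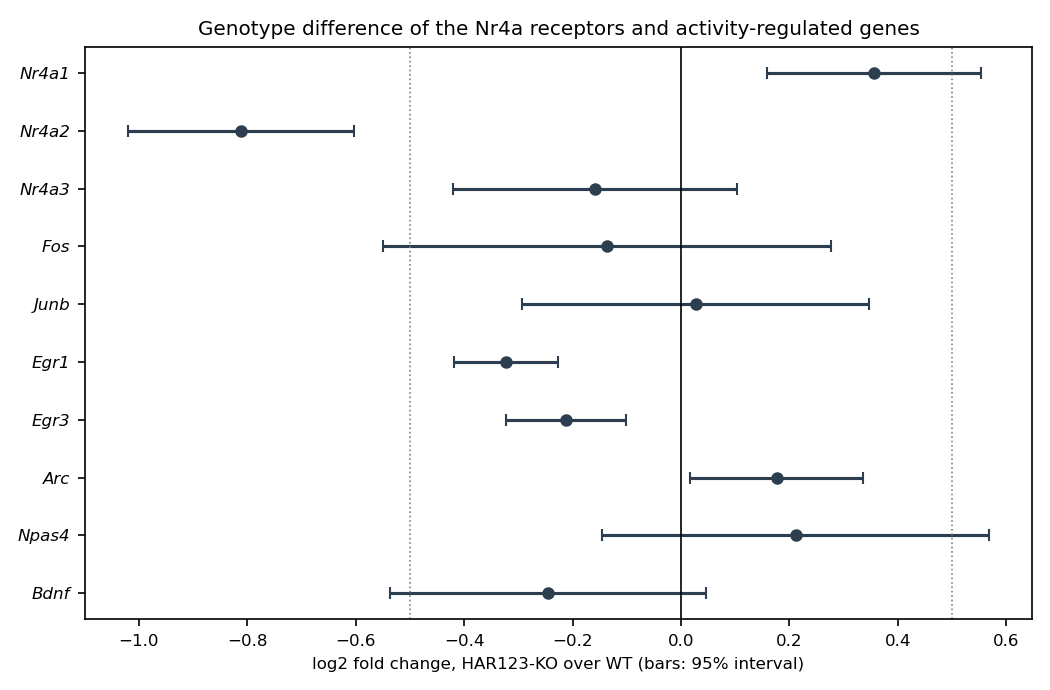
Log2 fold change of HAR123-KO over WT (x axis) for the 10 genes, with 95% intervals as bars and dotted lines at the fold limit of 0.5 in either direction. Nr4a2, which was selected on this contrast, is at -0.81, and the other 9 lie between -0.32 for Egr1 and 0.36 for Nr4a1.

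Of the 9 genes that were not selected on this contrast, Egr1 and Egr3 fell, Nr4a1 rose and 6 did not pass the test, beside 0.713% lower and 0.972% higher over all genes tested. The log2 fold changes of Fos, Npas4 and Arc, which did not pass, were -0.14, 0.21 and 0.18.

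The ratio of Nr4a2 to the others was taken library by library on the log2(normalized count + 1) scale. Each ratio carries the Nr4a2 difference on which the gene was selected, so the values are a description only. The log2 ratio of Nr4a2 to Nr4a1 was 0.48, 0.59, 0.08 and 0.29 in the WT libraries and -0.78, -0.87, -0.53 and -1.05 in the HAR123-KO libraries. Nr4a2 exceeded Nr4a1 in counts in every WT library and was below it in every HAR123-KO library. Against the mean of the 7 activity-regulated genes the log2 ratio of Nr4a2 was 0.46 ± 0.20 (SD, n = 4) in WT and -0.28 ± 0.12 in HAR123-KO, a difference of -0.74 with no overlap. Against Egr1, the nearest in direction, it was -2.04 ± 0.15 in WT and -2.52 ± 0.12 in HAR123-KO, a difference of -0.48. In the ratio of Nr4a2 to Bdnf the genotypes overlapped: HAR123-KO replicate 4 reached 1.01 and the lowest WT library was at 0.88.

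Levels were compared between genes per exon length, as counts per kb of exon per 1000000 protein-coding counts. In WT, Egr1 was the most abundant at 62.1 ± 2.73 (SD, n = 4), then Egr3 at 42.7 ± 2.04 and Arc at 26.8 ± 2.11, each apart from the next. Nr4a2 followed at 16.7 ± 1.80, and its libraries overlapped those of Nr4a1 at 15.0 ± 1.25. Junb was next at 11.0 ± 1.07, and Fos, Nr4a3, Bdnf and Npas4 lay between 5.65 and 3.89 with overlap between neighbours. In HAR123-KO, Nr4a1 held rank 4 at 19.3 ± 2.45 and Junb rank 5 at 11.2 ± 3.40. Nr4a2 held rank 6 at 9.46 ± 0.659, overlapping Junb and apart from Fos at 5.17 ± 0.547. Nr4a2 thus passed from the level of Nr4a1 in WT to about that of Junb in HAR123-KO.

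**Figure D3:**
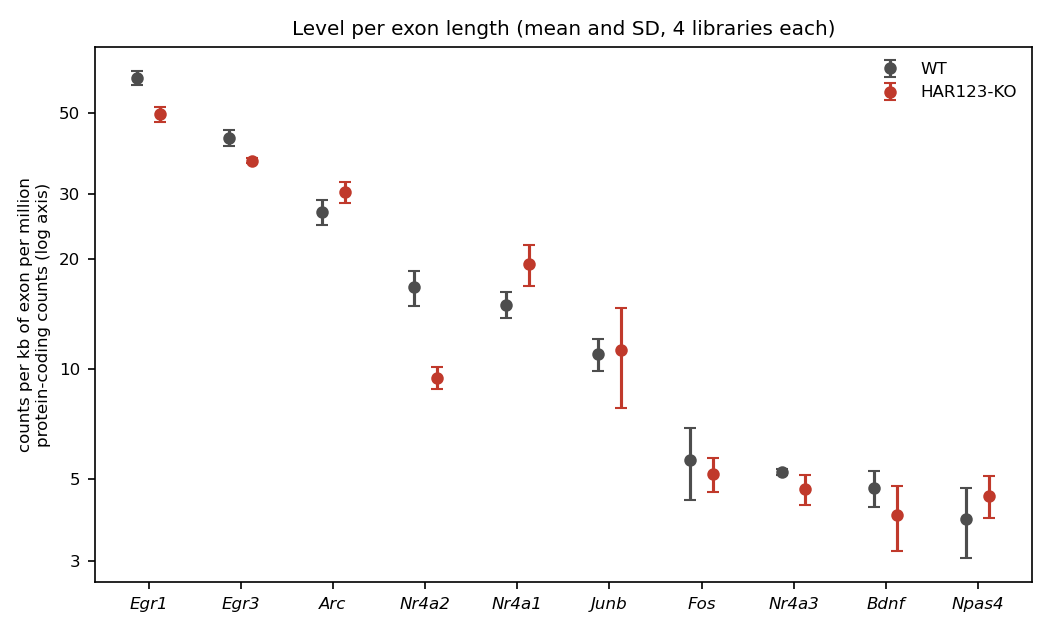
Counts per kb of exon per 1000000 protein-coding counts (log axis) for the 10 genes, ordered by the WT level, as mean and SD of 4 WT (grey) and 4 HAR123-KO (red) libraries. Nr4a2 and Nr4a1 lie side by side in WT at 16.7 and 15.0, and lie apart in HAR123-KO at 9.46 and 19.3.

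Whether Nr4a2 varied with the activity-regulated genes between animals of 1 genotype was asked on a measure that its genotype difference does not enter. For each library, the deviation from the genotype mean was taken on the log2(normalized count + 1) scale, and that of each gene was set against the mean deviation of the activity-regulated genes. For Nr4a2, Pearson's r was -0.37 (n = 8, two-sided exact permutation p = 0.509 over 576 orders within genotype) and Spearman's rho was -0.31 (exact permutation p = 0.535). Without WT replicates 2 and 3, the libraries farthest from the median of the activity genes, r was 0.17. Leaving out WT replicate 3 alone turned the sign (r = 0.12), and leaving out WT replicate 2 alone did not (r = -0.28). None of the 10 relations passed, with r from -0.52 for Egr1 to 0.43 for Egr3 and an adjusted exact permutation p of 0.891 for Nr4a2. The mean over the activity genes deviated by -0.08 to 0.11 on the log2 scale, while single genes deviated more, from -0.38 to 0.55 for Junb. Each activity gene was set against the mean of the other 6, and these relations did not pass either. Their mean therefore could not decide whether Nr4a2 follows a shared activity, and no conclusion is drawn from r.

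**Figure D4:**
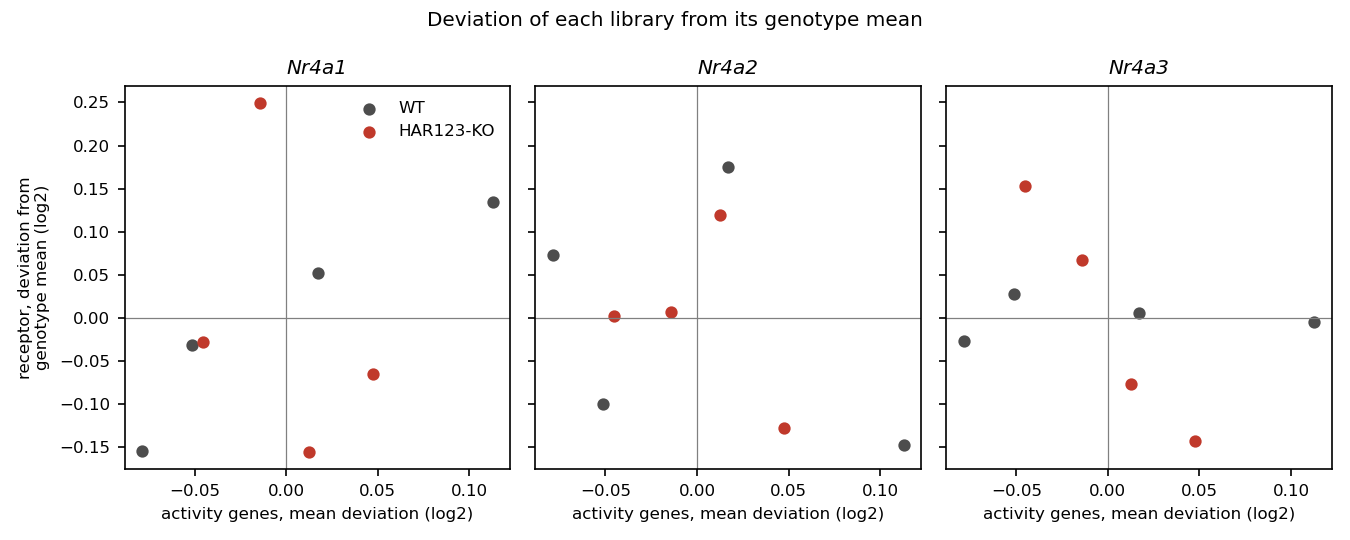
Deviation of each receptor (y axis, log2) from its genotype mean against the mean deviation of the 7 activity-regulated genes (x axis, log2), with 1 point per library, WT grey and HAR123-KO red. For Nr4a2 the relation did not pass (r = -0.37, n = 8, exact permutation p = 0.509).

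A wider list held 31 other activity-regulated genes. Of these, 25 had an adjusted p, 1 rose, 1 fell and 23 did not pass, beside 1.69% of all genes tested that passed. The median log2 fold change was -0.04 against -0.0017 over all genes tested. Of the 10 transcription factors, 6 had an adjusted p and 0 passed, with a median of -0.23. The most abundant were Fosl2, an AP-1 subunit, at -0.22 ± 0.11 (log2 fold change, SE, DESeq2 adjusted p = 0.572), Jun at 0.0038 ± 0.13 (adjusted p = 0.999) and Egr4 at -0.49 ± 0.32 (adjusted p = 0.749). Egr2, named after its values were seen as another gene of the Egr family, had -0.42 ± 0.31 (DESeq2 adjusted p = 0.797).

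Of the 21 signalling and synaptic effectors, 19 had an adjusted p, and their median was -0.0019. Plk2, a kinase that weakens synapses after strong activity, rose from 525 to 601 normalized counts in WT to 656 to 721 in HAR123-KO (log2 fold change 0.25 ± 0.05, SE, DESeq2 adjusted p = 0.00061), and passed in all 8 fits that left out 1 library. Homer1, a scaffold of the postsynaptic density, had 1183 to 1313 in WT and 1104 to 1184 in HAR123-KO, with groups that overlapped. Homer1 fell by 0.14 on the log2 scale (SE 0.04, DESeq2 adjusted p = 0.0316), and kept this call in 2 of 8 such fits, those without WT replicate 4 or HAR123-KO replicate 4. With 10 counts required in 4 libraries Homer1 did not pass, and the 1 gene lower was Vgf (DESeq2 adjusted p = 0.0323). The Homer1 count joins the short activity-induced form with the constant long form.

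Genes that act before or beside the receptors gave no call in DESeq2. Of 10 upstream regulators, all tested, 0 passed, and the median was 0.03. The most abundant were Mef2c at -0.04 ± 0.03 (log2 fold change, SE, DESeq2 adjusted p = 0.823), Crebbp at 0.04 ± 0.05 (adjusted p = 0.936) and Mef2d at -0.05 ± 0.05 (adjusted p = 0.859). None of the 3 retinoid X receptors, with which Nr4a1 and Nr4a2 form dimers, passed. Rxrg had the largest value, 0.41 ± 0.14 (DESeq2 adjusted p = 0.156), beside 0.18 ± 0.13 for Rxra (adjusted p = 0.82) and -0.0065 ± 0.10 for Rxrb (adjusted p = 0.998). Of the 4 neurotrophin receptors, 3 had an adjusted p and 0 passed: Ntrk2, the main receptor of Bdnf, had -0.08 ± 0.03 (DESeq2 adjusted p = 0.282), Sort1 0.0050 ± 0.03 (adjusted p = 0.995) and Ntrk3 -0.0032 ± 0.04 (adjusted p = 0.998).

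Markers of the cells that are known for constant Nr4a2 were read beside it. Of 8 dopamine neuron markers none had enough counts for an adjusted p, Pitx3, En1 and Foxa2 were at 0 in every library, and the sum over the list was 11.3 to 26.7 normalized counts in WT and 18.4 to 26.4 in HAR123-KO. Ddc and Th were the most abundant, at 8.89 and 5.95 in WT and 11.5 and 7.85 in HAR123-KO, and Lmx1b had 0.816 and 1.01. The 14 markers of claustrum and layer 6b summed to 1154 to 1228 in WT and 1011 to 1043 in HAR123-KO, with no overlap. Of the 12 with an adjusted p, 10 had a log2 fold change below 0 and 2 above, the median was -0.15, and 1 fell, against 2 by edgeR and 2 by limma-voom. With size factors from the cortical excitatory markers, 8 of the 12 were below 0 and the median was -0.06. These factors also moved the median of the genes tested in the main fit, from -0.0017 to 0.09. The gene that fell was Gnb4, a G protein subunit enriched in claustrum, at 213 to 236 normalized counts in WT and 140.0 to 170.2 in HAR123-KO (log2 fold change -0.48 ± 0.10, SE, DESeq2 adjusted p = 0.000125), and it passed in all 8 fits that left out 1 library. No claustrum or layer 6b marker was at 0 in every library. The part of these cells in the Nr4a2 difference was not tested.

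Striatal and cortical markers moved with the genotype too. All 12 striatal projection neuron markers had a log2 fold change above 0, with a median of 0.42, and those that rose ran from 0.29 for Pde10a to 0.80 for Penk, with Drd2 at 0.65, Adora2a at 0.51 and Ppp1r1b at 0.36 between them. All 6 cortical excitatory markers were below 0, with a median of -0.08. With library totals as size factors 4 were below 0 and 2 above, with a median of -0.04. Library totals also moved the median of the genes tested in the main fit, from -0.0017 to 0.04. Of the cortical excitatory markers 2 fell: Slc17a7 by 0.16 and Camk2a by 0.08 on the log2 scale. The fall of Camk2a was lost with library totals, at a log2 fold change of -0.04 (DESeq2 adjusted p = 0.81). It was also lost by edgeR, at -0.08 (adjusted p = 0.0819), and without WT replicate 3, at -0.07 (DESeq2 adjusted p = 0.0651). None of these markers was at 0 in every library. Striatal projection neurons and cortical excitatory neurons both express Egr1, Egr3, Arc and Nr4a1, and the part of the cell mixture in the differences of these genes was not tested.

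**Figure D5:**
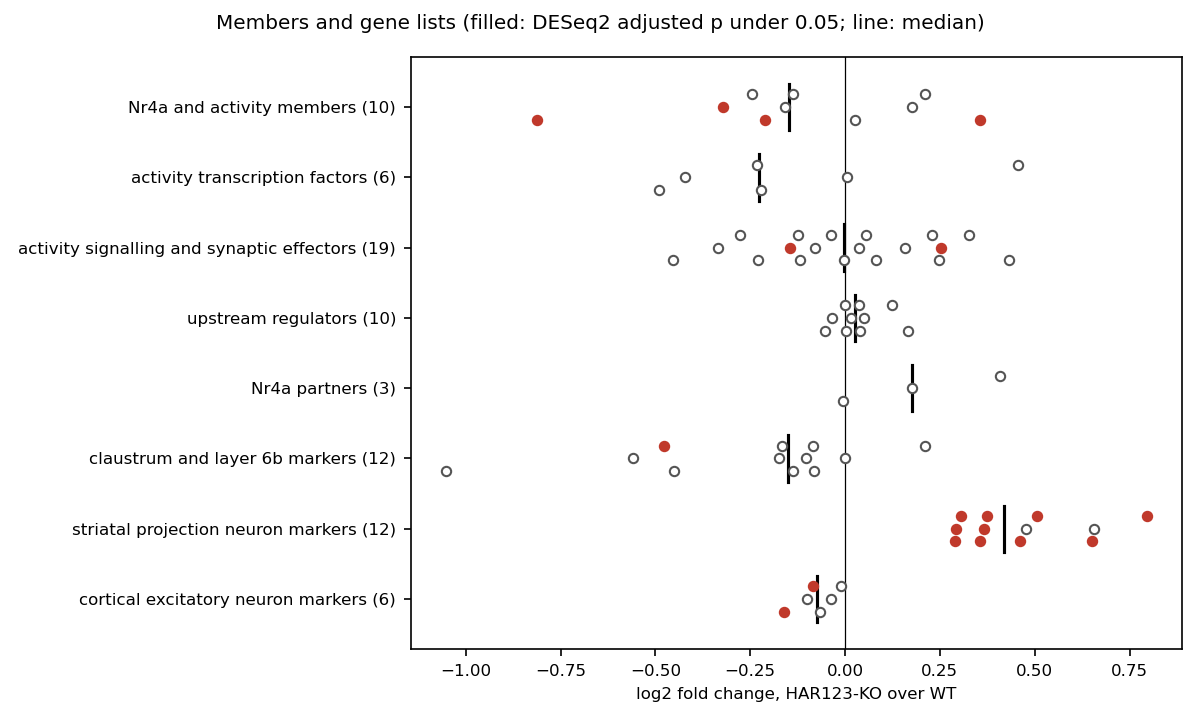
Log2 fold change of HAR123-KO over WT (x axis) for the 10 genes and the tested genes of 7 lists, with 1 point per gene, filled where the DESeq2 adjusted p is under 0.05, and the median as a line. The median of the activity effectors is at -0.0019, that of claustrum and layer 6b markers at -0.15 and that of striatal markers at 0.42.

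Among 8785 protein-coding genes whose mean normalized count was 50 or more, the 5 whose profile over the 8 libraries was most like that of Nr4a2 were H2-D1, Mt2, Elovl2, Vwf and Apln. Likeness was the root mean square distance of the log2 profiles after each was centred on its own mean, and it ran from 0.126 for H2-D1 to 0.222 for Apln, so it draws on the genotype difference itself. H2-D1 shares sequence with other MHC class I genes, so that reads may be split among them. H2-D1 was at 74.6 to 96.8 normalized counts in WT and 51.3 to 60.6 in HAR123-KO, and Mt2 was at 246 to 271 and 168 to 193. Among the other 9 genes, Egr1 came nearest at 0.269 (rank 36 of 8785), then Egr3 at 0.325 (rank 242) and Nr4a3 at 0.352 (rank 577). Nr4a1 was the farthest of them at 0.614 (rank 8695).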

How the data were processed

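Total RNA of 4 WT and 4 HAR123-KO frontal cortices was sequenced as paired-end directional libraries. The deposited values are raw gene counts, which the authors made with STAR 2.5.2b on GRCm38 and featureCounts over Ensembl exons. Strand and multimapping settings are not stated, so genes that overlap or share sequence may carry each other's reads. All 55536 identifiers matched GENCODE M21, and 0 columns were left unused. Library groups and replicate numbers came from the titles. Gm42418, a locus with ribosomal RNA sequence, took 55.1% to 58.0% of the counts. PCR copies were not marked, and nothing in the labels ties a library to an animal, so p-values measure the spread between these libraries.

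Counts were tested with DESeq2 1.42.0 (R 4.3.3, Wald test, median-of-ratios size factors, genotype only, Benjamini-Hochberg over the 12758 genes above a filter mean of 17.6 normalized counts). All 10 genes received an adjusted p. Intervals are 95% Wald intervals. Permutation tests used SciPy 1.17.1. Alternatives were edgeR 4.0.16 (quasi-likelihood), limma-voom (limma 3.58.1), TMM factors, library totals, protein-coding size factors, 10 counts in 4 libraries, the independent filter off, no fold limit, an adjusted p of 0.01 with a log2 fold change over 1, the replicate number as a block, and each library left out. Size factors from the 6 cortical excitatory markers were added after the data were seen. Scripts were tested on simulated data.

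The members and the lists (other activity genes, upstream regulators, partners, neurotrophin receptors, and markers of dopamine neurons, claustrum and layer 6b, striatal and cortical neurons, choroid plexus, microglia, endothelium and oligodendrocytes) were chosen with earlier results of these data known. Named were the members, every list gene with an adjusted p under 0.05 or otherwise up to 3 of the highest mean, and the 5 genes nearest Nr4a2 in profile. Some list genes are not reported here by name. Ctgf and Smim32 were matched as Ccn2 and Gm45623. RefSeq start windows were found for 7 of the 10 genes, and not for Egr1, Egr3 or Arc.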

Additional observations from a re-analysis of the deposited data

How the results depend on the processing

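The number of the 10 genes lower past both limits was 0 under the stricter limits of the study's methods (0.01 for the adjusted p and 1 for the log2 fold change), and 3 with no minimum fold change, where the number higher was 1. By the adjusted p alone, the number lower was 2 to 3 and the number higher 0 to 1 when 1 library was left out (0 without WT replicate 1, 2 or 4 or HAR123-KO replicate 1, 2 or 4). The number higher was 0 with 10 counts in 4 libraries or with the filter off, and 2, Arc added, with size factors from cortical excitatory markers. Of the other activity genes, 2 were lower by edgeR and limma-voom, Vgf added, 0 with library totals, filter off or excitatory marker factors, and 0 to 2 with 1 library left out (0 without WT or HAR123-KO replicate 1, 2 or 3, 2 without HAR123-KO replicate 4).

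Replicate numbers do not pair the libraries: deviations of same-numbered libraries correlated at -0.02 to 0.02, and 1 of 4 numbers matched best with itself. With the replicate number as a block, 9 genes in all were past both limits against 38, and 22 against 215 by the adjusted p. Of the members, 1 was lower (Nr4a2) and 0 were higher by the adjusted p, so the calls of Egr1, Egr3 and Nr4a1 were lost. Of the other activity genes 0 were higher and 0 lower. Under the block 0 claustrum and layer 6b markers were lower, Gnb4 included, 0 cortical excitatory markers were lower and 5 striatal markers were higher. Over all genes, edgeR put 73 past both limits, limma-voom 55 and the fit without HAR123-KO replicate 4 gave 11. Excitatory marker factors gave 936 by the adjusted p alone, with a median log2 fold change of 0.09 over the genes tested in the main fit.

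Junb changed sign with limma-voom (-0.0225), with the replicate block (-0.00098) and without WT replicate 4, where leaving out 1 library gave -0.0370 to 0.14. The within-genotype r of Nr4a2 ran from -0.59 to 0.12 with 1 library left out. For the activity genes it ran from -0.54 to 0.45 for Fos (0.0421 on log2 CPM), -0.65 to 0.42 for Junb, -0.0232 to 0.95 for Egr3, -0.80 to 0.18 for Arc, -0.47 to 0.0828 for Npas4 and -0.16 to 0.63 for Bdnf. Without WT replicate 2, Egr3 and Nr4a3 (r = -0.58) had an unadjusted exact permutation p of 0.0139. With all counts of the library as denominator, the WT level of Nr4a2 per kb was 3.51. The causes were not tested. Fos, Junb and Npas4, the genes with the fewest counts, had no adjusted p in 3, 2 and 3 fits, and their depth limits what can be seen.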

Other observations

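Of 8 choroid plexus markers the 2 with an adjusted p, Ttr and Kl, both rose, and the list summed to 87.8 to 105 normalized counts in WT and 726 to 759 in HAR123-KO. All 6 endothelial markers had a log2 fold change below 0, with a median of -0.42 and sums of 336 to 357 in WT and 237 to 273 in HAR123-KO, and 1 of them, Vwf, fell, with a log2 fold change of -0.90 (DESeq2 adjusted p = 7.34e-06). Among the oligodendrocyte markers, Mbp and Cnp rose, by log2 fold changes of 0.18 and 0.15. Of the 6 microglia markers 5 had an adjusted p and 0 passed in DESeq2, with overlapping sums of 882 to 958 in WT and 855 to 912 in HAR123-KO. The part of these cells in the differences of the Nr4a and activity genes was not tested.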
